A study of Homo sapiens with 4 samples.

Results

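The 44 genes described here encode mitotic kinases, kinesins, kinetochore and spindle proteins and their regulators. They are the genes named on a list of mitotic genes that had a probe annotated to 1 gene on the array, with the brightest probe taken where there were several. All 44 of the 44 listed genes were measured, among 18417 genes in all. The cells were HuH7, an established line from a human hepatocellular carcinoma. They were infected with pLKO.1 lentivirus and selected with puromycin for 7 days, and RNA was read on 1-colour arrays from 2 samples with MKL1/2 shRNA and 2 samples with a control shRNA. Both groups thus share the vector, the virus packaging in HEK293T cells, the selection, medium with 10% serum and a passage number below 10, and differ in the hairpin, which targeted MKL1 and MKL2 (now MRTFA and MRTFB), co-activators of serum response factor, or was a control. The titles call the replicates biological, but the labels name no hairpin sequence and do not say whether the lines are pools or clones or come from separate infections. The p-values therefore measure only the spread between these arrays, which may be technical, and the number of arrays limits the precision. Since RNA was taken from whole cultures, fewer cells in mitosis and less RNA per mitotic cell cannot be told apart.

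In mitosis, kinases of the Polo, Aurora, BUB and NEK families drive spindle assembly and chromosome attachment, and kinesins move chromosomes and slide or shorten microtubules. The spindle checkpoint holds back the anaphase-promoting complex until all kinetochores are attached, after which separase cuts cohesin and the cell divides. Transcripts of most of these genes are low in resting cells and peak in G2 and M phase, when B-MYB (MYBL2) and FOXM1 act with the MuvB complex at a promoter element called CHR (cell cycle genes homology region), often next to CCAAT boxes that bind NF-Y. In liver, where hepatocytes seldom divide, these genes are known as markers of regeneration and of tumour growth.

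The promoters of PLK1 and ESPL1, the members with the smallest p-values, and of PTTG1, which had the highest log2 difference, are shown for these elements. Each window runs from 250 bases before to 50 bases after the start, 5′ to 3′, from RefSeq (GRCh38.p14), and capitals mark TTTGAA, the CHR, and CCAAT or its reverse complement ATTGG. PLK1 lies on the plus strand at chr16:23678639-23678938, ESPL1 on the plus strand at chr12:53268049-53268348 and PTTG1 on the plus strand at chr5:160421605-160421904.
PLK1: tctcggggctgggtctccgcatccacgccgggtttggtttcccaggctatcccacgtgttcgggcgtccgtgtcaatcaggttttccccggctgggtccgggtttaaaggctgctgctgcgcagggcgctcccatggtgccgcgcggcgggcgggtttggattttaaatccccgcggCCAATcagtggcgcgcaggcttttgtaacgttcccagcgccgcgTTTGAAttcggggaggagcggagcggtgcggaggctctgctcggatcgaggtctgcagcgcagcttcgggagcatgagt
ESPL1: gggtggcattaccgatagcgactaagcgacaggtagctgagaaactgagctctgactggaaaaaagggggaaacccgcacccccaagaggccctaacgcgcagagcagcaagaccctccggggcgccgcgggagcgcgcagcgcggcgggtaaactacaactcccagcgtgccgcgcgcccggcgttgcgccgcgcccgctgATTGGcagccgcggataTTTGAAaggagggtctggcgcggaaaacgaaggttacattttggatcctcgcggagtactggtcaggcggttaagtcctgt
PTTG1: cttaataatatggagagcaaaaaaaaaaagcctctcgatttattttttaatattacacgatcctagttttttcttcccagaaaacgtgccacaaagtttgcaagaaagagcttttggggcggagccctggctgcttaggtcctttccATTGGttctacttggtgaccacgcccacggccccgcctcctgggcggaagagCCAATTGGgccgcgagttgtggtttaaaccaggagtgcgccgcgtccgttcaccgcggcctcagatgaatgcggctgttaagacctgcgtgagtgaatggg
In PLK1 the CHR began 29 bases before the start, with a CCAAT box 73 bases before it. In ESPL1 the CHR began 31 bases before the start, with a CCAAT box on the other strand 48 bases before it. The PTTG1 window, the first listed of 2 for that gene, held no CHR. It had a CCAAT box on the other strand 103 bases before the start, and those 51 and 48 bases before it overlap on opposite strands. BIRC5, also among the 3 members with the smallest p-values, is named only.

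Both motifs were frequent among the members. A window was found for 36 of the 44 genes, and 27 of them (75.0%) held a CHR on either strand in at least 1 window, against 41 of 91 other mitotic genes (45.1%) and 2240 of 14239 tested genes (15.7%). A CCAAT box was found in 28 of 36 members (77.8%), against 6012 of 14239 tested genes (42.2%), and 21 members (58.3%) held both motifs in 1 window, against 6.48% of tested genes. The CArG box, the element that serum response factor binds, was found in 0 of 36 members and in 1.7% of tested genes, which says only that these letters are not in these windows. The 9 members with a window but no CHR were AURKB, BUB1, NEK2, MYBL2, KIF2C, KIF20A, CENPE, SPC24 and PTTG1. The CHR was searched only as TTTGAA on either strand, so its absence too says only that these letters are not in these windows.

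**Figure D1:**
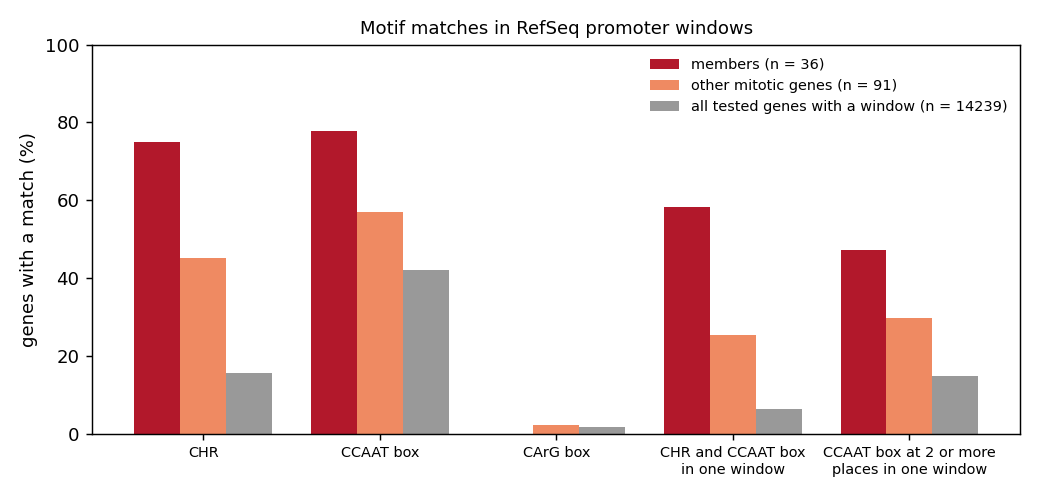
Bars give the share of genes, in percent, with a match to each motif in a RefSeq window of 300 bases, for 36 members, 91 other mitotic genes and all 14239 tested genes with a window. The CHR stands at 75.0% in members against 15.7% of tested genes, and the CArG box at 0 against 1.7%.

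The shRNA targets were read first. The one probe that lists MRTFA, which also lists RBM15, read 6.81 and 6.91 in MKL1/2 shRNA samples, against 7.77 and 7.80 in control samples, differing by -0.93 on the log2 scale (SE 0.096, limma adjusted p = 0.0404). The difference stayed between -0.98 and -0.88 with any 1 array left out. It kept its call without knockdown replicate 1 or 2 (limma adjusted p = 0.0236 and 0.0145) and lost it without control replicate 1 or 2 (limma adjusted p = 0.732 and 0.638). MRTFB read 6.84 and 7.11 in MKL1/2 shRNA samples, against 7.20 and 7.22 in control samples (limma adjusted p = 0.448). The 2 knockdown arrays differed from each other with an SD of 0.265 over all genes, and the 2 control arrays with an SD of 0.154. All 11 measured hepatocyte and hepatoma markers, of 13 listed, had mean log2 values between 8.70 and 12.30, whereas 4 leukocyte markers lay between 2.94 and 5.29 and 4 endothelial markers between 4.30 and 6.54. Among 6 fibroblast markers LUM stood out, at 7.13 and 8.60 in the knockdown arrays, against 8.05 and 8.01 in the control arrays, while of all 6 markers 3 were lower in knockdown replicate 1 than in replicate 2 and 3 were higher. The part of these markers in the results on mitotic genes was not tested.

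None of the 44 mitotic genes passed the test, although most lay lower in MKL1/2 shRNA cells by small amounts. In limma, 0 of 44 members had an adjusted p under 0.05 over all 18417 genes, against 0.174% of all genes (32 called, of which 0.0923% of all genes were lower and 0.0814% higher). At an unadjusted p under 0.05 in limma, 5 of 44 members were lower (PLK1, ESPL1, BIRC5, KIF2C and FOXM1) and 0 higher, against 8.04% and 6.25% of all genes. Of the 7688 genes whose mean value lay in the members' range of 6.64 to 10.44, 12.9% were lower and 7.17% higher by that threshold, so the members' share of 11.4% lower was not above that of genes at their level. The log2 difference, MKL1/2 shRNA minus control shRNA, was below 0 in 38 of 44 members, against 48.0% of all genes and 57.8% of those 7688. With quantile normalization it was below 0 in 35, as KIF4A, NDC80 and DLGAP5, all near 0, turned positive (0.0051, 0.018 and 0.016). The median over members was -0.16, which is 89.7% of the control level, against 0.0082 over all genes and -0.037 over those 7688. Both knockdown arrays lay below both control arrays in 22 of 44 members, against 23.0% of all genes and 33.7% of the 7688. Both lay above in 1 member, PTTG1, against 22.5% of all genes.

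**Figure D2:**
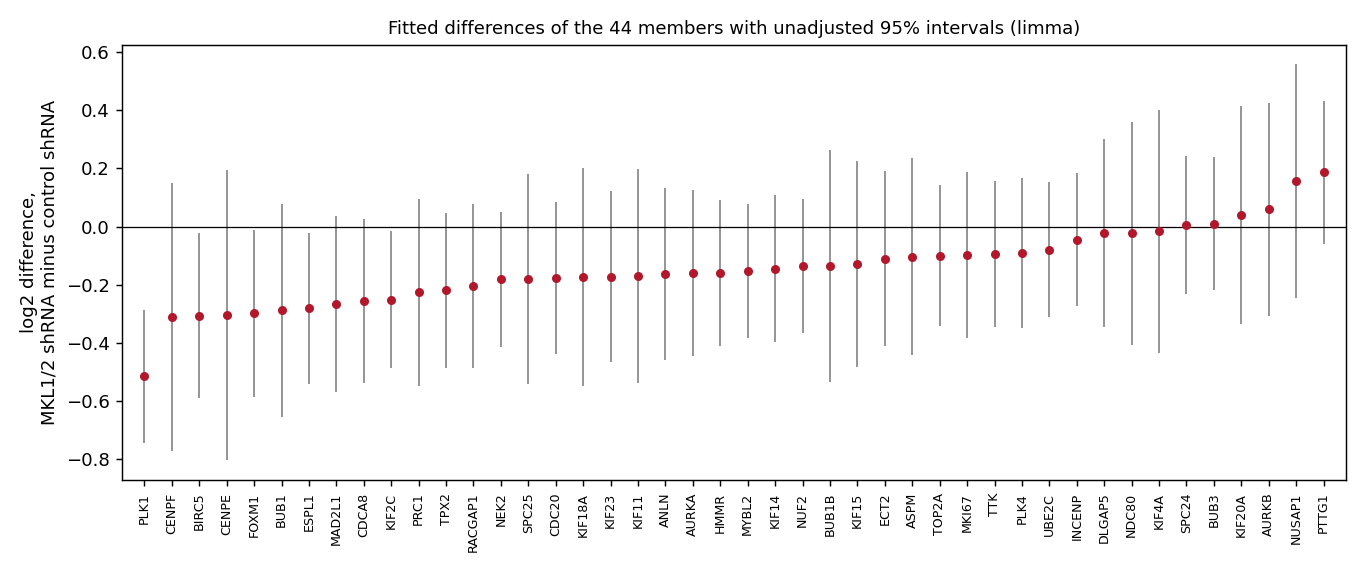
Points give the fitted log2 difference of each of the 44 members, MKL1/2 shRNA minus control shRNA, in rising order from PLK1 (-0.52) to PTTG1 (0.19), and bars give unadjusted 95% intervals from limma. The interval of PLK1 runs from -0.74 to -0.29, and those of most other members span 0.

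The knockdown arrays differed between themselves, and the low values belonged mainly to replicate 1. Against the control mean, the members' median was -0.28 in knockdown replicate 1, where it was 0.017 over all genes and -0.064 over genes at the members' level. It was -0.027 in knockdown replicate 2, where it was -0.0079 over all genes and -0.020 over genes at that level. Replicate 1 lay below both control arrays in 41 of 44 members, against 37.4% of all genes and 52.5% of genes at that level. Replicate 2 did so in 23 of 44, against 40.1% and 44.9%. Replicate 1 lay above both control arrays in 2 members, against 42.8% of all genes and 32.1% at that level, and replicate 2 in 11, against 36.4% and 37.6%. Replicate 1 was the lower of the 2 knockdown arrays in 38 of 44 members, against 47.6% of all genes and 60.0% of genes in the members' range. The exceptions were PLK1, NEK2, BUB3, MYBL2, CDC20 and HMMR. The knockdown arrays were over 0.2 apart in 26 members, and the control arrays in 3, with a largest control gap of 0.27. The share of all genes past that gap was not counted. Over all genes the knockdown pair was also wider apart, with an SD of 0.265 against 0.154. The knockdown pair was further apart than the control pair in 37 of 44 members, against 63.6% of all genes and 66.3% at that level. Control replicate 1 lay below control replicate 2 in 21 of 44, against 48.9%. MRTFB was also lower in knockdown replicate 1, and its part in this gap was not tested.

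**Figure D3:**
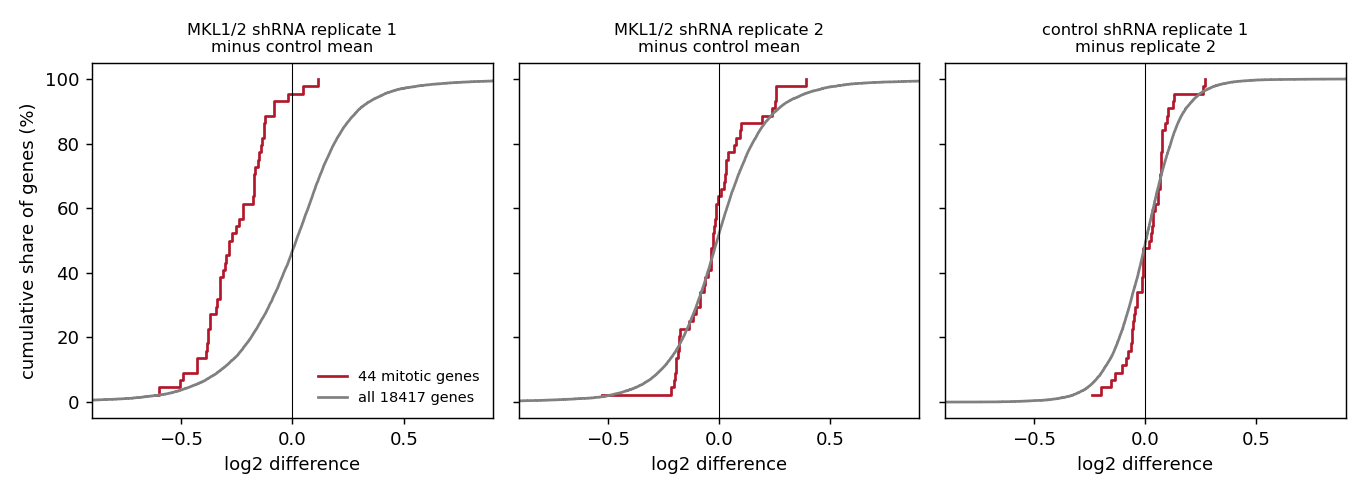
Curves give the cumulative share of genes, in percent, against the log2 difference, for the 44 mitotic genes and for all 18417 genes, in 3 panels (each knockdown array minus the control mean, and control replicate 1 minus control replicate 2). The members are shifted to the left in knockdown replicate 1 (median -0.28), whereas in knockdown replicate 2 (median -0.027) and between the controls (median 0.021) the curves cross near 0.

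With 1 knockdown array at a time, the list reads differently. Without knockdown replicate 2, 22 members were lower at an unadjusted p under 0.05 in limma, against 13.0% of all genes. Of these, CENPE and CENPF, with differences of -0.62 and -0.60, passed over all genes, a share of the members near that of all genes (4.24%). Without knockdown replicate 1, 0 members passed in limma, against 1.62% of all genes, and 4 had an unadjusted p under 0.05: PLK1 lower, against 9.33% of all genes, and KIF20A, NUSAP1 and PTTG1 higher, against 9.02%. In both fits the lone knockdown array is assumed to vary like the controls. Without control replicate 1 or control replicate 2, 1 member, PLK1, was lower at an unadjusted p under 0.05 in limma, against 2.45% and 3.67% of all genes, and 0 were higher, against 2.25% and 2.95%.

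PLK1, the Polo kinase of mitotic entry, centrosome maturation and cytokinesis, was the member with the largest difference and one of those whose knockdown arrays lay together. It read 10.19 and 10.17 in MKL1/2 shRNA samples, against 10.73 and 10.66 in control samples. Both knockdown arrays lay about equally far below both controls, at 70.0% of the control level. The log2 difference was -0.52 (SE 0.094, limma adjusted p = 0.120), and PLK1 ranked at position 220 of 18417 genes by p. In knockdown replicate 2 its distance of -0.53 from the control mean was the lowest of all members, with NEK2 next at -0.21.

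The other mitotic kinases had smaller differences. NEK2, which separates centrosomes, read 7.32 and 7.26 in MKL1/2 shRNA samples, against 7.50 and 7.44 in control samples, with no overlap. BUB1, a checkpoint kinase at kinetochores, read 8.92 and 9.32 in MKL1/2 shRNA samples, against 9.46 and 9.36 in control samples. Its low value belonged to replicate 1, and replicate 2 lay just under the controls. The log2 differences were -0.18 for NEK2 (SE 0.095, limma adjusted p = 0.446) and -0.29 for BUB1 (SE 0.151, limma adjusted p = 0.448). AURKA, the Aurora kinase of spindle poles, read 9.22 and 9.47 in MKL1/2 shRNA samples, against 9.52 and 9.49 in control samples. BUB1B, the checkpoint protein BUBR1, read 8.17 and 8.64 in MKL1/2 shRNA samples, against 8.50 and 8.58 in control samples. AURKB, the kinase of the chromosomal passenger complex, read 9.72 and 10.11 in MKL1/2 shRNA samples, against 9.79 and 9.92 in control samples. For AURKA, BUB1B and AURKB the gap between the knockdown arrays exceeded the difference between the groups. BUB1B and AURKB had 1 knockdown array on each side of the controls, while AURKA had no overlap. Both knockdown arrays lay below both controls in 23.0% of all genes and 33.7% of genes at the members' level. TTK, the checkpoint kinase MPS1, and PLK4, the kinase of centriole duplication, differed by -0.095 and -0.091 with overlapping groups.

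Of the passenger complex, 2 of the subunits lay lower than AURKB and INCENP, a contrast that was not tested. BIRC5, which encodes survivin, read 7.53 and 7.77 in MKL1/2 shRNA samples, against 7.99 and 7.93 in control samples (log2 difference -0.31, SE 0.117, limma adjusted p = 0.317). A second, dimmer BIRC5 probe read 4.34 and 4.59 in MKL1/2 shRNA samples, against 4.50 and 4.60 in control samples, differing by -0.083 with overlap. CDCA8, which encodes borealin, read 7.86 and 8.11 in MKL1/2 shRNA samples, against 8.24 and 8.25 in control samples (log2 difference -0.26, SE 0.116, limma adjusted p = 0.386). Both genes had no overlap between groups, as in 23.0% of all genes and 33.7% of genes at the members' level on the lower side. INCENP, the scaffold of the complex, differed by -0.046 with overlap. Of the kinase-free checkpoint partners, MAD2L1, which binds and blocks CDC20, read 8.20 and 8.34 in MKL1/2 shRNA samples, against 8.67 and 8.41 in control samples (log2 difference -0.27, SE 0.125, limma adjusted p = 0.396), with no overlap. BUB3, which carries BUB1 and BUBR1 to kinetochores, was level at a difference of 0.0093, with an unadjusted 95% interval from -0.22 to 0.24.

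**Figure D4:**
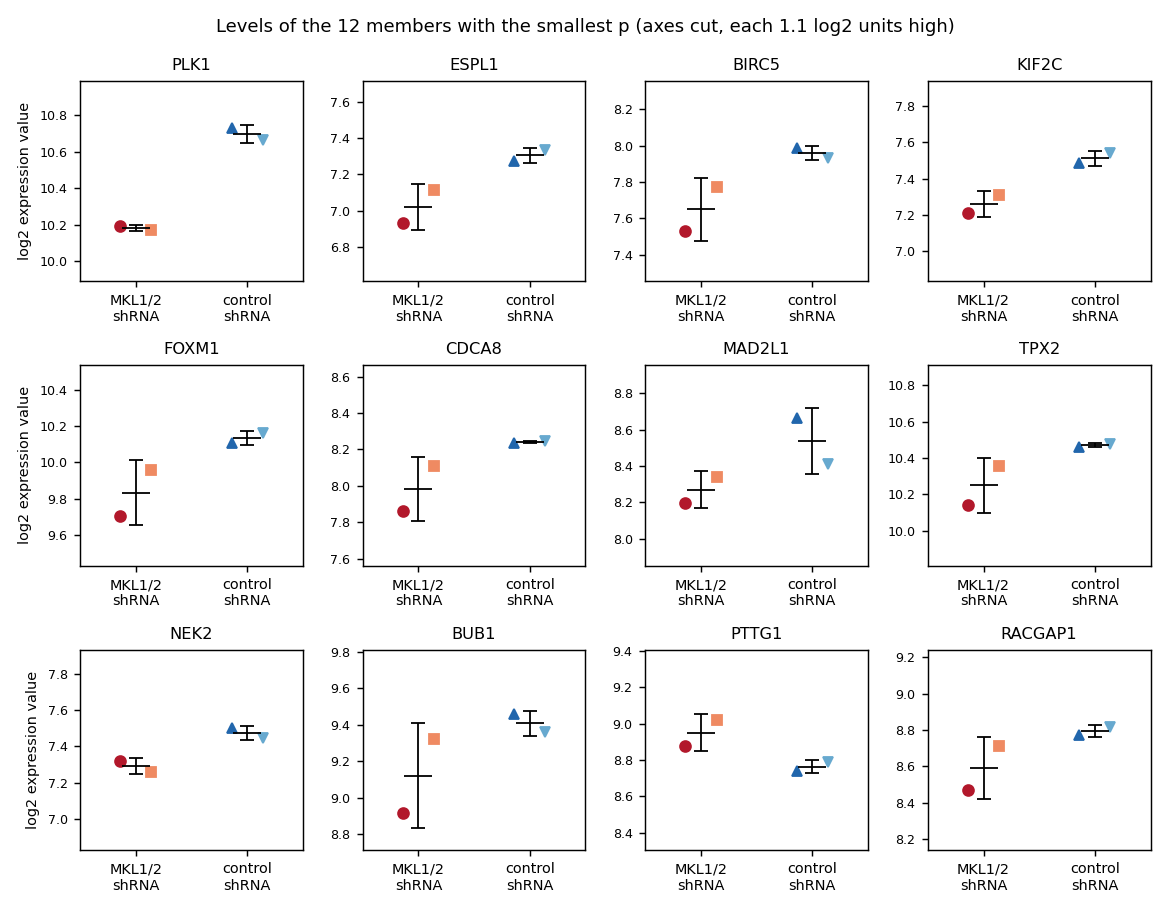
Each panel gives log2 expression values of 1 gene in the 2 MKL1/2 shRNA samples (left) and the 2 control shRNA samples (right), with the mean and SD, for the 12 members with the smallest p. PLK1 has both knockdown values together (10.19 and 10.17), while in FOXM1 (9.71 and 9.96) and BUB1 (8.92 and 9.32) replicate 1 lies well below replicate 2.

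The list holds 2 transcription factors, and neither passed the test. FOXM1, the forkhead activator of G2 and M phase genes, read 9.71 and 9.96 in MKL1/2 shRNA samples, against 10.11 and 10.16 in control samples (log2 difference -0.30, SE 0.118, limma adjusted p = 0.332). MYBL2, which encodes B-MYB, read 9.29 and 9.24 in MKL1/2 shRNA samples, against 9.45 and 9.38 in control samples. Neither gene had overlap between the groups, as in 23.0% of all genes and 33.7% of genes at the members' level on the lower side, and the knockdown arrays lay close together for MYBL2 and apart for FOXM1. The log2 difference of MYBL2 was -0.15 (SE 0.095, limma adjusted p = 0.526).

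All 9 kinesins were lower in knockdown replicate 1 than in replicate 2, with a median gap of -0.40. The same order held in 38 of all 44 members, 47.6% of all genes and 60.0% of genes at the members' level. KIF2C, a microtubule depolymerase at centromeres, had the most even pair, at 7.21 and 7.31 in MKL1/2 shRNA samples, against 7.48 and 7.54 in control samples (log2 difference -0.25, SE 0.097, limma adjusted p = 0.324). CENPE, which carries chromosomes to the spindle equator, read 6.94 and 7.56 in MKL1/2 shRNA samples, against 7.62 and 7.49 in control samples, so only replicate 1 lay apart. Its log2 difference over all 4 arrays was -0.31 (SE 0.205, limma adjusted p = 0.564), with overlap between the groups. KIF4A, a chromosome-bound kinesin that works with PRC1, read 7.31 and 7.82 in MKL1/2 shRNA samples, against 7.58 and 7.59 in control samples, 1 array on each side of the controls. A probe shared by KIF4A and KIF4B differed by 0.16 and was not used. KIF11, the motor that pushes spindle poles apart, and KIF15, which can stand in for it, had the same split. KIF11 read 7.80 and 8.22 in MKL1/2 shRNA samples, against 8.20 and 8.15 in control samples. KIF15 read 6.62 and 7.02 in MKL1/2 shRNA samples, against 6.94 and 6.96 in control samples. KIF18A, which damps chromosome movement, KIF23, a subunit of centralspindlin, and KIF14, which acts in cytokinesis, had differences from -0.17 to -0.15. KIF20A, which moves the passenger complex to the midzone, differed by 0.040, with 8.84 and 9.27 in MKL1/2 shRNA samples, against 8.97 and 9.06 in control samples.

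All 5 kinetochore genes were lower in knockdown replicate 1 than in replicate 2, as in 47.6% of all genes and 60.0% at the members' level. Their places relative to the controls varied. CENPF, a large kinetochore and nuclear matrix protein, read 7.66 and 8.24 in MKL1/2 shRNA samples, against 8.26 and 8.27 in control samples. Replicate 1 lay far below the controls and replicate 2 just under them, and the log2 difference was -0.31 (SE 0.19, limma adjusted p = 0.517). The 4 subunits of the NDC80 complex, which binds microtubules, differed among themselves. SPC25 read 6.97 and 7.38 in MKL1/2 shRNA samples, against 7.35 and 7.36 in control samples. NDC80 read 7.52 and 7.95 in MKL1/2 shRNA samples, against 7.82 and 7.70 in control samples. NUF2 was lower in both knockdown arrays, by -0.17 and -0.10 against the control mean, and SPC24 differed by 0.0059. In SPC24 replicate 1 minus replicate 2 was -0.10 in the control arrays and -0.051 in the knockdown arrays.

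All 4 cytokinesis genes were lower in knockdown replicate 1 than in both controls, as in 37.4% of all genes and 52.5% at the members' level. In 2 of them replicate 2 was lower as well, as in 23.0% of all genes and 33.7% at that level. RACGAP1, the centralspindlin partner of KIF23, read 8.47 and 8.71 in MKL1/2 shRNA samples, against 8.77 and 8.82 in control samples (log2 difference -0.20, SE 0.115, limma adjusted p = 0.482). PRC1, which bundles midzone microtubules, read 9.19 and 9.52 in MKL1/2 shRNA samples, against 9.62 and 9.54 in control samples. ANLN, which links actin, myosin and septins at the cleavage furrow, read 9.40 and 9.68 in MKL1/2 shRNA samples, against 9.67 and 9.73 in control samples. ECT2, the exchange factor that activates RhoA there, read 9.12 and 9.40 in MKL1/2 shRNA samples, against 9.41 and 9.34 in control samples. In ANLN and ECT2 replicate 2 lay among the controls.

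Separase and its inhibitor securin lay on opposite sides of the controls, although neither passed the test and their contrast was not tested. ESPL1, the separase that cuts cohesin, read 6.93 and 7.11 in MKL1/2 shRNA samples, against 7.27 and 7.33 in control samples (log2 difference -0.28, SE 0.107, limma adjusted p = 0.316). PTTG1, securin, read 8.88 and 9.02 in MKL1/2 shRNA samples, against 8.74 and 8.79 in control samples (log2 difference 0.19, SE 0.101, limma adjusted p = 0.465). Close copies of PTTG1 exist in the genome, and its probe could share their transcripts. CDC20, the activator of the anaphase-promoting complex, read 9.62 and 9.61 in MKL1/2 shRNA samples, against 9.69 and 9.89 in control samples. UBE2C, the ubiquitin-conjugating enzyme of that complex, differed by -0.079. All 4 of these genes had no overlap between the groups, 3 below the controls, as in 23.0% of all genes and 33.7% of genes at the members' level, and 1 above, as in 22.5% and 20.7%.

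Among the chromosome and spindle genes, TPX2, which activates AURKA on microtubules, read 10.14 and 10.35 in MKL1/2 shRNA samples, against 10.46 and 10.48 in control samples (log2 difference -0.22, SE 0.11, limma adjusted p = 0.427). HMMR, a spindle and hyaluronan binding protein, read 6.72 and 6.65 in MKL1/2 shRNA samples, against 6.77 and 6.92 in control samples. TOP2A, the topoisomerase that untangles chromosomes, read 9.61 and 9.71 in MKL1/2 shRNA samples, against 9.81 and 9.72 in control samples. These 3 had no overlap between groups, as in 23.0% of all genes and 33.7% of genes at the members' level on the lower side. In TOP2A the nearest arrays were almost level, at 9.7126 in knockdown replicate 2 and 9.7165 in control replicate 2. MKI67, the proliferation marker Ki-67, read 9.31 and 9.56 in MKL1/2 shRNA samples, against 9.57 and 9.50 in control samples, and ASPM, a spindle pole protein, read 8.25 and 8.61 in MKL1/2 shRNA samples, against 8.57 and 8.50 in control samples. For both, replicate 1 was below and replicate 2 among or above the controls. NUSAP1, which bundles spindle microtubules, read 9.60 and 10.07 in MKL1/2 shRNA samples, against 9.72 and 9.64 in control samples, the highest value of any member against its controls in replicate 2 (0.39). DLGAP5, a spindle stabilising protein, differed by -0.023, with control arrays as far apart as its knockdown arrays (0.24 each).

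**Figure D5:**
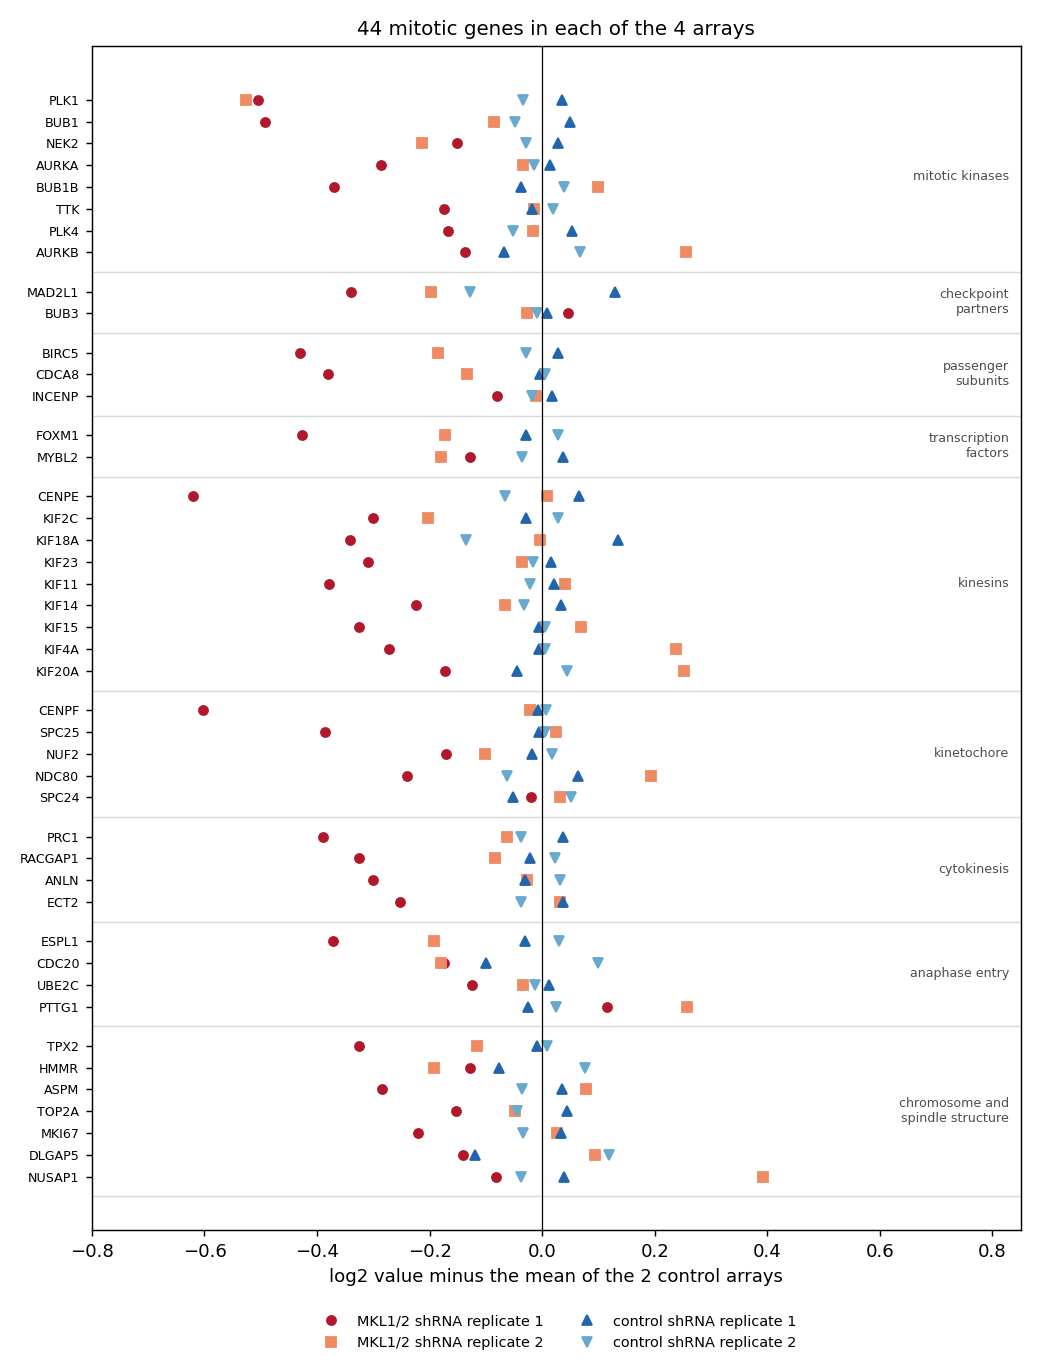
Points give the log2 value of each member minus the mean of its 2 control arrays, by role, for MKL1/2 shRNA replicates 1 and 2 and control shRNA replicates 1 and 2. Replicate 1 of the knockdown lies left of both controls in 41 of 44 genes and replicate 2 in 23, and PLK1 is the gene with both furthest to the left together.

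Among 102 measured mitotic genes outside the list, of 106 that were listed, most differences were also below 0. In limma 0 passed over all genes, and 86 (84.3%) had a difference below 0, against 48.0% of all genes, with a median of -0.13. At an unadjusted p under 0.05 in limma, 21 were lower (20.6%) and 1 higher (0.98%), against 8.04% and 6.25% of all genes. The lower share was above the members' 11.4%. No share was counted for genes at the level of these 102. The count at that threshold rose without knockdown replicate 2 and fell without any other array. Over all genes the count also rose without knockdown replicate 2 and fell without either control array, but it rose without knockdown replicate 1. Without control replicate 1 the median of these 102 genes was -0.11, and without control replicate 2 it was -0.14. Against the control mean, their median was -0.24 in knockdown replicate 1 and -0.063 in knockdown replicate 2. The lowest p belonged to SGO2, a shugoshin that protects centromeric cohesin, at 6.81 and 6.88 in MKL1/2 shRNA samples, against 7.39 and 7.30 in control samples (log2 difference -0.50, SE 0.097, limma adjusted p = 0.132). CIT, the citron kinase of cytokinesis, read 7.36 and 7.42 in MKL1/2 shRNA samples, against 7.87 and 7.79 in control samples (log2 difference -0.44, SE 0.096, limma adjusted p = 0.150). Like PLK1, both had knockdown arrays that lay together. CENPI, a subunit of the constitutive centromere network, differed by -0.68 (SE 0.150) and NDE1, a dynein regulator, by -0.41 (SE 0.093). On the other side were the kinase NEK6 at 0.36 (SE 0.139), the centromere protein CENPM at 0.14, the MuvB subunit LIN37 at 0.13 and the phosphatase inhibitor ARPP19 at 0.12. Without knockdown replicate 2, CENPI, NCAPG2, KIFC1, STIL and ANAPC1 passed in limma (background 4.24%), all lower. The last 4 were chosen after their values were seen, and ANAPC1 has pseudogene copies that could share its signal.

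The cyclin genes CCNA2, CCNB1 and CCNB2 and their kinase CDK1, which start mitosis, had no group difference past the test. Each was lower in knockdown replicate 1 than in replicate 2, as in 47.6% of all genes and 60.0% at the members' level. In CDK1 both knockdown arrays (7.98 and 8.14) lay between the controls (8.15 and 7.90), which were further apart. All 4 were under the mean of the controls in replicate 1 of the knockdown, with a median of -0.19, and above it in replicate 2, with a median of 0.12. Their log2 differences ran from -0.10 for CCNB1 to 0.040 for CDK1, and those of CCNA2 (0.028) and CCNB2 (0.0029) were positive only with quantile normalization among the scaling alternatives.

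The median log2 difference was -0.15 over the 27 members with a CHR and -0.15 over the 9 members with a window and no CHR, equal at this rounding, while 26 of 27 carriers and 5 of 9 others lay below 0. In knockdown replicate 1 the medians were -0.29 for carriers and -0.15 for the others, and in knockdown replicate 2 they were -0.016 and 0.0095. The 8 members without a window had a median of -0.18, with 7 below 0. Their medians were -0.31 in knockdown replicate 1 and -0.059 in knockdown replicate 2. Outside both mitotic lists, 2173 tested genes with a CHR had a median of -0.0067, with 51.8% below 0. There, 11942 genes with a window and no CHR had a median of 0.0065, with 48.4% below 0. These medians are descriptions with no test.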

How the data were processed

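The deposited table holds log2 expression values for 33297 probes on 4 arrays. Total RNA was biotin-labelled per the labels, and the submitters' processing notes name Partek. How background was corrected and how probe sets were normalized and summarized was not given in the sources used here. Values of 1.03 to 13.65 were taken to be on a log2 scale. Probes were named from the platform annotation: 19460 list 1 gene symbol, 1754 several and 12083 are not listed, and 19429 symbols were updated through the RefSeq gene table.

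The brightest single-gene probe gave 18417 genes. Differences (MKL1/2 shRNA minus control shRNA) were fitted with limma 3.58.1 in R 4.3.3, two-sided, group as the only term, Benjamini-Hochberg over all genes, threshold 0.05, with 2 residual and 4.12 prior degrees of freedom. The fit was tested on simulated data. All arrays of a simulated gene shared the same SD, so the unequal spread of the real knockdown and control pairs was not covered. Groups and replicate numbers came from the sample titles. No low-value filter was applied, and all 44 members also passed the alternative that drops the dimmest 40% of genes. Promoter motifs were searched in all RefSeq windows of a gene with Python 3.11.15. A window was listed for 36 of the 44 members, all except AURKA, TTK, BIRC5, FOXM1, BUB3, RACGAP1, TPX2 and UBE2C. The members and lists were chosen with earlier results of these data known. The SE and adjusted p are given for the 12 members with the smallest p and for some other genes. Also named by rule are the 4 members with the largest gap between knockdown arrays and the 4 highest. Of the other mitotic genes, the 4 with the smallest p in each direction are named. Alternatives changed the filter, normalization, probe choice, variance moderation, threshold and replicate block, and left out each array.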

Additional observations from a re-analysis of the deposited data

How the results depend on the processing

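No member passed limma's adjusted p of 0.05 under any alternative except the set without knockdown replicate 2; the count of members called ranged from 0 to 2 and of other mitotic genes from 0 to 5 with an array left out. Over all genes, 32 calls became 52 with quantile normalization, 51 with robust moderation, 144 at an adjusted p of 0.1 and 0 to 781 with an array left out. The 0 occurred without either control array, where 866 and 1219 genes had an unadjusted p under 0.05 in limma, and 0 genes passed without variance moderation (1840 at an unadjusted p under 0.05). With the replicate number as a block 93 genes and 0 members were called. The labels state no pairing, so shared numbers were not read as pairs. Same-numbered arrays deviated with a correlation of -0.067 over genes, which does not show whether some genes share a batch. The members' median ranged from -0.28 to -0.027 with an array left out and was -0.12 with quantile normalization, where 35 members lay below 0, and 28 to 42 did so with an array left out. PLK1 had limma adjusted p-values from 0.058 to 1 over the filter, normalization, probe, block and left-out alternatives. With quantile normalization KIF4A (0.0051), NDC80 (0.018), DLGAP5 (0.016), CCNA2 (0.028) and CCNB2 (0.0029) turned positive. With an array left out, 16 members and 4 cyclin or CDK genes crossed 0, with log2 differences of AURKB -0.14 to 0.26, BUB1B -0.37 to 0.0996, BUB3 -0.027 to 0.045, KIF4A -0.27 to 0.24, KIF11 -0.38 to 0.0399, KIF15 -0.33 to 0.0698, KIF20A -0.17 to 0.25, CENPE -0.62 to 0.0095, NDC80 -0.24 to 0.19, SPC24 -0.045 to 0.057, SPC25 -0.39 to 0.025, ECT2 -0.25 to 0.031, NUSAP1 -0.083 to 0.39, DLGAP5 -0.14 to 0.096, ASPM -0.29 to 0.078, MKI67 -0.22 to 0.026, CCNA2 -0.18 to 0.16, CCNB1 -0.26 to 0.058, CCNB2 -0.21 to 0.12 and CDK1 -0.084 to 0.16. The other 28 members kept their sign in every alternative run for single genes. The cause was not tested, and signal over background is unknown for these values.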
